A study of Mus musculus with 8 samples.

Results

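The genes described here encode inhibitory receptors of B cells that carry an immunoreceptor tyrosine-based inhibitory motif (ITIM) or a related tyrosine motif in their cytoplasmic tail. They were chosen by name, as the 10 genes Cd22, Siglecg, Pirb, Lilrb4a, Cd72, Cd5, Lair1, Pecam1, Ceacam1 and Cd300a, and read from the probe set that the array's annotation gives to that gene alone. Of these 10 genes, 9 were measured, out of 22180 genes in all. The only probe set of Cd72 lists the neighbouring kinase gene Tesk1 as well, so Cd72 was not analysed here. Each of the other 9 had 1 probe set of its own.

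RNA came from B-1a cells of the peritoneal cavity of 5-week-old mice, sorted by flow cytometry and measured on Affymetrix arrays as log2 values. The KO group carried a Cre allele active in B lineage cells together with PTIPflox/flox, so that Cre deletes the gene for PTIP (Paxip1) in these cells. The control group, labelled WT, was PTIP+/+ with the same Cre allele, so both groups carried Cre. From 29 KO and 22 control mice 4 pools per genotype were made, 1 array each, with the mice per pool, their sex and the sort gates not stated in the labels. The comparison asks which of these receptors depend on PTIP, which works with the H3K4 methyltransferases MLL3 and MLL4.

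When an ITIM receptor is brought to its ligand or to the B cell receptor, the Src-family kinase Lyn phosphorylates the motif. The tail then recruits the phosphatases SHP-1 and SHP-2 or the lipid phosphatase SHIP-1, which damp calcium entry and kinase signalling. B-1a cells, which make natural antibodies and respond weakly to B cell receptor cross-linking, are known for the restraint that CD5 and Siglec-G place on them. Mice without Siglec-G have an enlarged B-1a population.

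Of the 9 measured receptor genes 5 fell in KO (Lilrb4a, Ceacam1, Siglecg, Pirb and Cd22), 1 rose from a low value (Cd300a), and 3 did not pass the test (Pecam1, Lair1 and Cd5). A gene is described as called, or as having risen or fallen, when its adjusted p in limma was under 0.05 over all genes tested. Over all genes 3.59% were called, 2.1% lower and 1.49% higher in KO, which is the background for each count of called genes below. That share includes genes of low value, whereas all measured members but Cd300a and Lair1 lay above the median of gene means (3.81). With only genes above that median tested, 1017 were called, against 797 of all 22180. For the lists below, the share of all genes at an unadjusted p under 0.05 was not counted, so such counts have no background. The median difference of the 9 genes, KO minus control on the log2 scale, was -0.59, and over all genes tested it was 0.02. The KO and control pools were fully separated in 7 of the 9, against 10.5% of all genes. For each of these 7 an exact permutation test (two-sided, 70 ways to assign the arrays) gave its lowest possible p, 0.0286. Full separation of 4 from 4 pools fixes that p, so the test adds nothing to the separation.

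**Figure D1:**
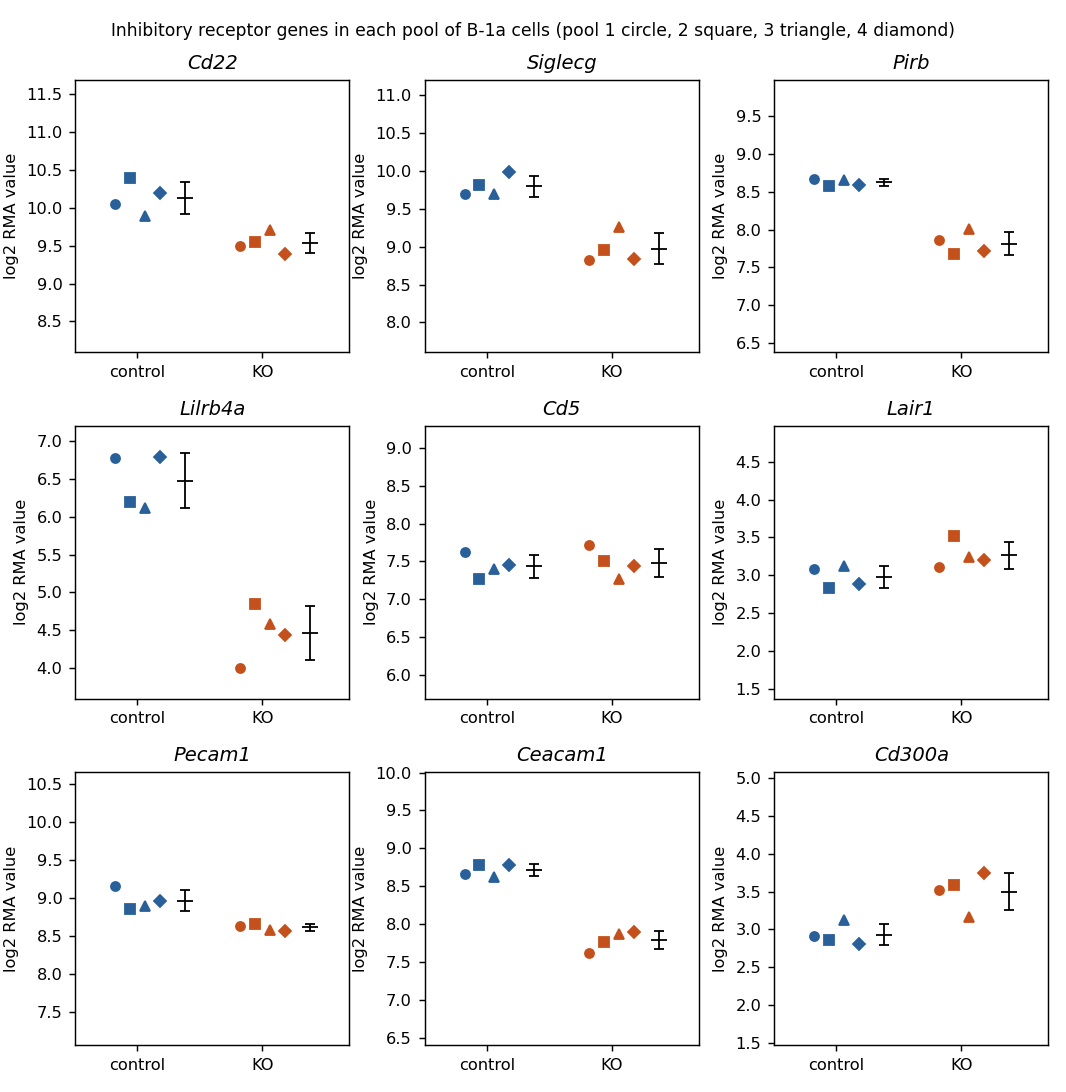
Each panel shows 1 gene, with the log2 RMA value of every pool on the vertical axis (each panel spans the same number of log2 units) and the control and KO groups on the horizontal axis. Black bars are the mean and SD of 4 pools. The groups do not overlap for Cd22, Siglecg, Pirb, Lilrb4a, Pecam1, Ceacam1 and Cd300a, and they overlap for Cd5 and Lair1.

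Promoter sequence is shown for the called members that have it in the RefSeq table (GRCm38.p6), so that the genes that fell can be read side by side with the one that rose. Each window holds 300 bases around the annotated start, 5′ to 3′ on the gene's strand. Capitals mark matches, on either strand, to GAGGAA (the core bound by PU.1-type ETS factors), TGGGAA (the Ikaros core), TGACTCA (AP-1), CAGGTG (an E-box of the E2A type) and TGTGGT (the RUNX core). No matches overlapped in these windows. For Siglecg, which has 2 windows, the upstream one is given. Cd22 lies at chr7:30878979-30879278 (minus strand), Siglecg at chr7:43407989-43408288 (plus), Pirb at chr7:3720333-3720632 (minus), Ceacam1 at chr7:25477576-25477875 (minus) and Cd300a at chr11:114889791-114890090 (plus).
Cd22: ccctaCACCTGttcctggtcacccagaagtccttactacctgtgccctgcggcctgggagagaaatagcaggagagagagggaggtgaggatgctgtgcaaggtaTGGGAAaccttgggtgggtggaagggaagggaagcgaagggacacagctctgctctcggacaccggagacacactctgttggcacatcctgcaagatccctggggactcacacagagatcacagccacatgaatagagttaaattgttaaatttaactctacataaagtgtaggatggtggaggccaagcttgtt
Siglecg: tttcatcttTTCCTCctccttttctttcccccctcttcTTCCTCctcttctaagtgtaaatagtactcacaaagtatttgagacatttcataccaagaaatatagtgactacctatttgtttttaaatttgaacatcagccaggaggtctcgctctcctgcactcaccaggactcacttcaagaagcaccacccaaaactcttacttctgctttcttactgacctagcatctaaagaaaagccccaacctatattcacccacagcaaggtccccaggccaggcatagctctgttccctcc
Pirb: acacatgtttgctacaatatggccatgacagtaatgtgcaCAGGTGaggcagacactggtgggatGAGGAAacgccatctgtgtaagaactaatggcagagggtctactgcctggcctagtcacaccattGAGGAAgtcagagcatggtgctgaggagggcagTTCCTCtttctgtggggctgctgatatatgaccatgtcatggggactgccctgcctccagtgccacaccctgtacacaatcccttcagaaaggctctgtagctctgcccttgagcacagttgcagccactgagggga
Ceacam1: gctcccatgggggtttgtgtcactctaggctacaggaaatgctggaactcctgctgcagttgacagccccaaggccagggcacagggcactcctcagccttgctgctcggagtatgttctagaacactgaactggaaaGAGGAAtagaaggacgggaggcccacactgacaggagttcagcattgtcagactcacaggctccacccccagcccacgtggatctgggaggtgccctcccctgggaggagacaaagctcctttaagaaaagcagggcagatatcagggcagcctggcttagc
Cd300a: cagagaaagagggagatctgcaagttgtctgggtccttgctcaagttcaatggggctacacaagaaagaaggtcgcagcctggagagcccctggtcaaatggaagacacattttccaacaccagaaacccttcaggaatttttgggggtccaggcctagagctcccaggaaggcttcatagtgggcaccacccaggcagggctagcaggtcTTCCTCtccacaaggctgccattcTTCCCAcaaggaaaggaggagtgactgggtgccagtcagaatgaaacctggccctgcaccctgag

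The PU.1-type core occurred 3 times in the Pirb window, 2 times in that of Siglecg and 1 time each in those of Ceacam1 and Cd300a, and was not found in that of Cd22. Of all 32851 promoter windows of this length, 28.3% held at least 1 match to it. The Ikaros core was found 1 time each in Cd22 and Cd300a (25.6% of all windows) and the E-box 1 time each in Cd22 and Pirb (20.2%). The AP-1 and RUNX letters, held by 5.2% and 16.8% of all windows, were in none of the 5. The window of Cd5, a gene not called, held 1 PU.1-type core, 1 Ikaros core and 2 E-boxes, so that these letters were not confined to called genes. A match is a run of letters and says nothing about binding in these cells.

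Lilrb4a encodes an inhibitory receptor of the leukocyte immunoglobulin-like family (gp49B, LILRB4), known from mast cells, macrophages and activated lymphocytes. On the log2 scale KO pools 1 to 4 read 4.01, 4.85, 4.58 and 4.43, and the control pools 6.78, 6.20, 6.12 and 6.79. Every KO pool lay more than 1 log2 unit below the lowest control pool. The difference was -2.00 (SE 0.20, limma, adjusted p = 0.000306), a 4.01-fold lower value. Beside it, the differences of the other 4 genes that fell lay between -0.92 and -0.59. Lilr4b, a close paralog that activates rather than inhibits, lies next to it in the gene order. The array may not separate the pair, and a further probe set that lists both was not used.

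Pirb, the paired immunoglobulin-like receptor B, binds MHC class I and restrains B cells and myeloid cells. KO pools 1 to 4 read 7.86, 7.68, 8.00 and 7.72, and control pools 1 to 4 read 8.67, 8.57, 8.66 and 8.58. The control pools lay close together (SD 0.05), and all KO pools lay below them. Pirb fell by 0.81 (SE 0.09, 1.75-fold, limma, adjusted p = 0.00066). It stands in a cluster of near-identical activating Pira genes, whose shared probe set lists several genes and was not used. The nearest tested protein-coding gene on the far side of that cluster, Gm15448, which is listed on that shared probe set too but has 1 of its own, fell by 1.16 (adjusted p = 0.0125). Cross-hybridisation between such copies was not tested.

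The sialic acid receptors of B cells, Cd22 and Siglecg, both fell. CD22 (Siglec-2) binds sialic acid in alpha2,6 linkage and is a constitutive brake on B cell receptor calcium signals. For Cd22, KO pools 1 to 4 read 9.501, 9.55, 9.71 and 9.39 against 10.045, 10.4, 9.90 and 10.2 in the control pools. The highest KO pool, 3, stayed below the lowest control pool, also 3. It fell by 0.59 (SE 0.11, 1.51-fold, limma, adjusted p = 0.0170). Siglecg, the receptor known for holding down B-1a cell numbers, had 8.82, 8.96, 9.26 and 8.84 in KO and 9.69, 9.82, 9.70 and 9.99 in control. Its KO pools were again all lower, and the fall was 0.83 (SE 0.12, 1.77-fold, adjusted p = 0.00265). Without KO pool 4 or control pool 4 the call of Cd22 was lost (adjusted p = 0.0517 and 0.0555), at differences of -0.54 and -0.57.

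Ceacam1 and Pecam1 are adhesion molecules that bind their own kind on neighbouring cells and carry ITIMs in the tail. For Ceacam1, KO pools 1 to 4 read 7.62, 7.77, 7.87 and 7.90, and the control pools 8.67, 8.78, 8.62 and 8.79. The pools of each genotype lay close together, with SDs of 0.12 and 0.08, and did not overlap. The fall was 0.92 (SE 0.09, 1.90-fold, limma, adjusted p = 0.000252). Its paralog Ceacam2, which is next to it among tested protein-coding genes, differed by 0.19 and was not called (adjusted p = 0.541). Pecam1 (CD31) stood at 8.63, 8.66, 8.58 and 8.57 in KO and 9.15, 8.85, 8.89 and 8.96 in control. These groups did not overlap either, yet the difference of -0.35 (95% interval -0.55 to -0.16) missed the threshold, at adjusted p = 0.0533. It was called in 3 of 20 alternatives, among them the fit with each array centred on its own median (adjusted p = 0.0455).

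Cd5, which defines B-1a cells and dampens their B cell receptor, was the receptor gene that differed least. The sort gates are not stated, and whether selection of the cells on CD5 limited the difference was not tested. KO pools 1 to 4 read 7.71, 7.499, 7.26 and 7.44, and the control pools 7.63, 7.26, 7.39 and 7.46, so that the groups overlapped. The difference of 0.04 had a 95% interval from -0.21 to 0.29 (limma, adjusted p = 0.922), an interval that does not reach the difference of any of the 5 members that fell. T cells carry CD5 as well. In KO the T cell markers (13 measured) averaged 7.36 in pool 1, 7.09 in pool 2, 5.25 in pool 3 and 5.82 in pool 4, the order that Cd5 also took. In control they averaged 5.60, 5.69, 4.90 and 4.65, and Cd5 followed another order. With that mean as a covariate the difference of Cd5 was -0.11, and with KO pools 1 and 2 left out it was -0.09 (adjusted p = 0.788 and 0.8292).

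Cd300a and Lair1, receptors for phosphatidylserine and for collagen that are best known from myeloid and natural killer cells, had low values in both groups, below the median of all gene means (3.81). For Cd300a, KO pools 1 to 4 read 3.52, 3.58, 3.16 and 3.74, and the control pools 2.92, 2.87, 3.13 and 2.81. The groups were separated only by the narrow gap between KO pool 3 and control pool 3. The rise of 0.57 (SE 0.13, limma, adjusted p = 0.0315) was lost when any 1 pool other than KO pool 3 or control pool 3 was left out (adjusted p up to 0.0916), and in the replicate block fit (0.0843). Lair1 had 3.11, 3.51, 3.24 and 3.197 in KO and 3.08, 2.83, 3.12 and 2.89 in control. Its groups overlapped, and the difference of 0.28 (95% interval 0.05 to 0.52) was not called (adjusted p = 0.229).

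**Figure D2:**
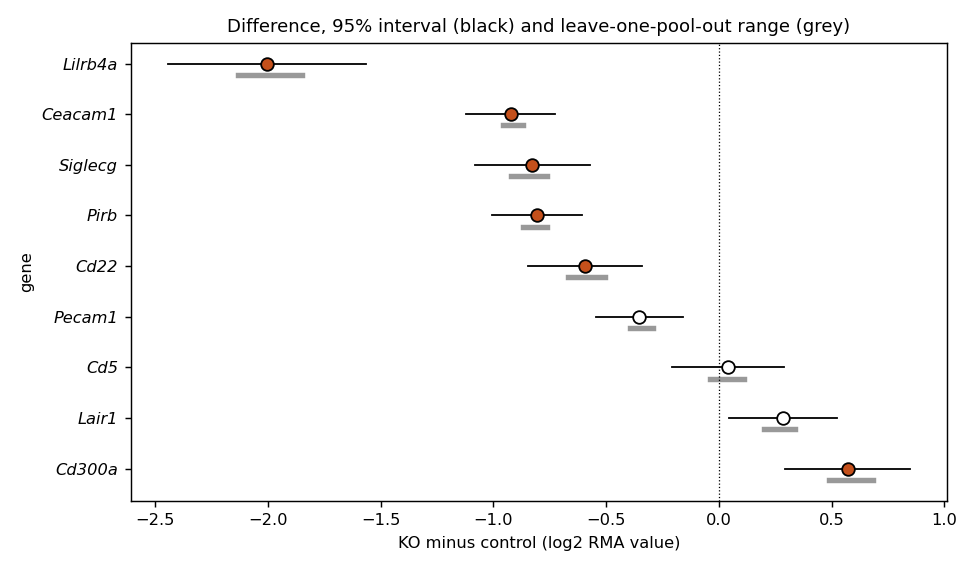
The horizontal axis is the difference KO minus control in log2 RMA value for each measured gene on the vertical axis. Points are the limma estimates (filled where adjusted p was under 0.05), black lines their 95% intervals and grey bars the range when 1 pool at a time is left out. Lilrb4a stands apart at -2.00, 4 further genes lie between -0.92 and -0.59, and Cd5 lies at 0.04.

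Within the KO group the members did not move as 1 block. KO pool 3 was the highest KO pool for Cd22, Siglecg and Pirb and the lowest for Cd5 and Cd300a. KO pool 1 was the lowest for Siglecg, Lilrb4a, Lair1 and Ceacam1 and the highest for Cd5. No pool of either genotype was the extreme for all members.

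By the root mean square difference of centred values over the 8 arrays, the pattern nearest to Lilrb4a was that of Slamf9 (0.28 log2 units, difference -1.87), followed by the adaptor gene Gab2 (0.31, -1.72) and the integrin gene Itgam (0.32, -1.68). Nearest to Siglecg was Cd274, the gene for PD-L1 (0.08, -0.83), then Pik3c2b, a class II phosphoinositide 3-kinase (0.12, -0.95), and Ankrd16 (0.12, -0.68). Pik3c2b was also among the nearest to Ceacam1 (0.09), after Prkar2b (0.08, -1.05) and before Pstpip2 (0.10, -0.99). Prdm9, Pmepa1 and Gmip lay nearest to Pirb (0.09 to 0.10), and Sbno2, Gripap1 and Tmem199 nearest to Cd22 (0.08 to 0.09). Tspan2, Adam26b and Vps26b were nearest to Cd300a (0.10 to 0.11). Vps26b was called (limma, adjusted p = 0.0419), and Tspan2 and Adam26b were not (0.0591 and 0.0619). Adam26b averaged only 2.73 in KO and 2.23 in control. Because values were centred over all 8 arrays, these distances include the difference between the genotypes.

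Genes next to the members were set beside them. Cd22, Siglecg, Pirb, Lair1 and Ceacam1 all lie on chromosome 7. Of the 17 tested protein-coding genes next to a measured member in the RefSeq gene order, 1 fell (Gm15448) and 1 rose (Fam162b, beside Lilrb4a, by 0.45, limma, adjusted p = 0.0239), where 3.59% of all genes were called. Siglecf, the other sialic acid receptor gene beside Siglecg, differed by -0.10 (adjusted p = 0.715), and Mag, beside Cd22, by -0.06 (adjusted p = 0.808). Siglecf averaged 3.10 in KO and 3.19 in control, below the median of all gene means (3.81), where detection was not tested.

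Among 19 measured genes listed as other ITIM receptors 4 fell and 0 rose, where 2.1% and 1.49% of all genes did. The median difference was -0.03, and 7 passed at an unadjusted p under 0.05. The list also holds Fcrl1 and Cd200r1, whose products carry other tyrosine motifs and no ITIM. Cd300lf, a phosphatidylserine and ceramide receptor of the Cd300 family, fell by 1.63 (SE 0.13, 3.09-fold, limma, adjusted p = 8.81e-05). KO pools 1 to 4 read 5.58, 5.80, 5.93 and 5.57, and the control pools 7.01, 7.54, 7.42 and 7.43. All KO pools were lower, opposite to its family member Cd300a. Sirpa, whose product binds CD47, fell by 0.64 (SE 0.11, adjusted p = 0.00920), but was not called after adjustment for the T cell marker mean (-0.53, adjusted p = 0.121) or with KO pools 1 and 2 left out (-0.52, 0.0942). Fcgr2b, the inhibitory receptor for IgG, fell by 1.60 (SE 0.16), and Fcrl5, of the same wider family, fell by 1.39 (SE 0.14). Fcrl1 and Btla, also expressed by B cells, differed by 0.06 and -0.29 and were not called (adjusted p = 0.860 and 0.188), both named after their values were seen.

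Among the activating counterparts and their adaptors, 9 of 15 listed genes were measured, with 0 falls and 1 rise. Their median difference was 0.01, and 3 passed at an unadjusted p under 0.05. Pira1, Pira2, Pira6, Pira11, Lilr4b and Gp49a were not measured. The counts therefore do not cover the activating Pira genes or Lilr4b, the paralog of Lilrb4a. Below the median of all gene means (3.81), where detection was not tested, lay 5 of the 9 measured genes. Hcst, the adaptor DAP10 that pairs with the NK receptor NKG2D, rose by 0.68 (SE 0.10, limma, adjusted p = 0.00317). KO pools 1 to 4 read 9.86, 9.89, 9.54 and 9.68, all above the control pools at 9.17, 9.06, 9.07 and 8.93. The mean of 11 NK cell markers was also higher, at 4.37 to 5.59 in KO against 3.62 to 4.48 in control. Adjusted for the T cell marker mean, the difference of Hcst was 0.51 (adjusted p = 0.0449). The part of NK cells in it was not tested. Tyrobp, the adaptor DAP12, differed by -0.40 and was not called (adjusted p = 0.0913), and was named after its value was seen.

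Downstream of the motif, 2 of 12 effector genes fell and 0 rose, where 2.1% and 1.49% of all genes did. The median difference was 0.02, and 6 passed at an unadjusted p under 0.05. The phosphatases that ITIMs recruit were measured well above the median gene. Ptpn6 (SHP-1) was at 9.29 ± 0.07 in KO and 9.54 ± 0.18 in control (SD, n = 4), Ptpn11 (SHP-2) at 7.16 ± 0.11 and 6.80 ± 0.12, and Inpp5d (SHIP-1) at 9.26 ± 0.06 and 8.94 ± 0.09. None of these 3 was called (limma, adjusted p = 0.255, 0.0596 and 0.0646). The KO pools of Ptpn11 and Inpp5d nevertheless all lay above the control pools, at differences of 0.36 and 0.31, and both were called higher in 2 of 20 alternatives, the test of genes above the median mean alone and the intensity trend with a robust prior. The falls were Inppl1 (SHIP-2, -0.64, SE 0.14) and Dok3 (-0.55, SE 0.12), an adaptor that brings SHIP-1 to the B cell receptor. Inppl1 was no longer called when KO pool 1, 3 or 4, or when control pool 2 or 4, was left out (adjusted p up to 0.0702). For Dok3 this held for every pool except KO pool 3 and control pool 2 (up to 0.0917), and after adjustment for the T cell marker mean its difference was -0.37 (adjusted p = 0.281).

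Of the kinases that phosphorylate the motif and their regulators, 6 of 8 were measured and limma called 0, with 3 at an unadjusted p under 0.05. Lyn itself was not analysed here. The 3 were the B cell kinase Blk (-0.24), Csk (-0.26), which holds Src-family kinases inactive, and Pag1 (0.44), a membrane anchor of Csk (adjusted p = 0.218, 0.182 and 0.159). Ptprc (CD45) differed by 0.02. These 4 were named after their values were seen.

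Ligands and the enzymes that make them gave 1 fall and 1 rise among 19 measured genes, with a median difference of 0.08. Cmah, the hydroxylase that makes the N-glycolyl sialic acid preferred by mouse CD22, fell by 0.84 (SE 0.09, 1.795-fold, limma, adjusted p = 0.000474). KO pools 1 to 4 read 8.71, 8.49, 8.57 and 8.44, and the control pools 9.45, 9.49, 9.38 and 9.26, again without overlap. St6gal1, which adds the alpha2,6 sialic acid that CD22 binds, differed by 0.07 and was not called (adjusted p = 0.808). Sema4d, the CD100 ligand of CD72, rose by 0.43 (SE 0.10, adjusted p = 0.0309), and was no longer called when KO pool 1, 2 or 3, or control pool 3 or 4, was left out (up to 0.0856), or after adjustment for the T cell marker mean (0.34, 0.257). St6gal1 was named after its value was seen.

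The B cell receptor module, which these receptors oppose, had 1 fall (Vav2, -0.46) and 1 rise (Cr2, 0.74) among 13 measured genes and a median difference of -0.12. With 1 pool left out, Vav2 stayed called only when that was KO pool 3 or control pool 1, and Cr2 only when it was control pool 1 (adjusted p up to 0.0879 and 0.114). Neither was called with the replicate block (0.0637 and 0.0592) or after adjustment for the T cell marker mean (0.204 and 0.121). Its core chains Cd79a and Cd79b differed by -0.04 and -0.01.

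**Figure D3:**
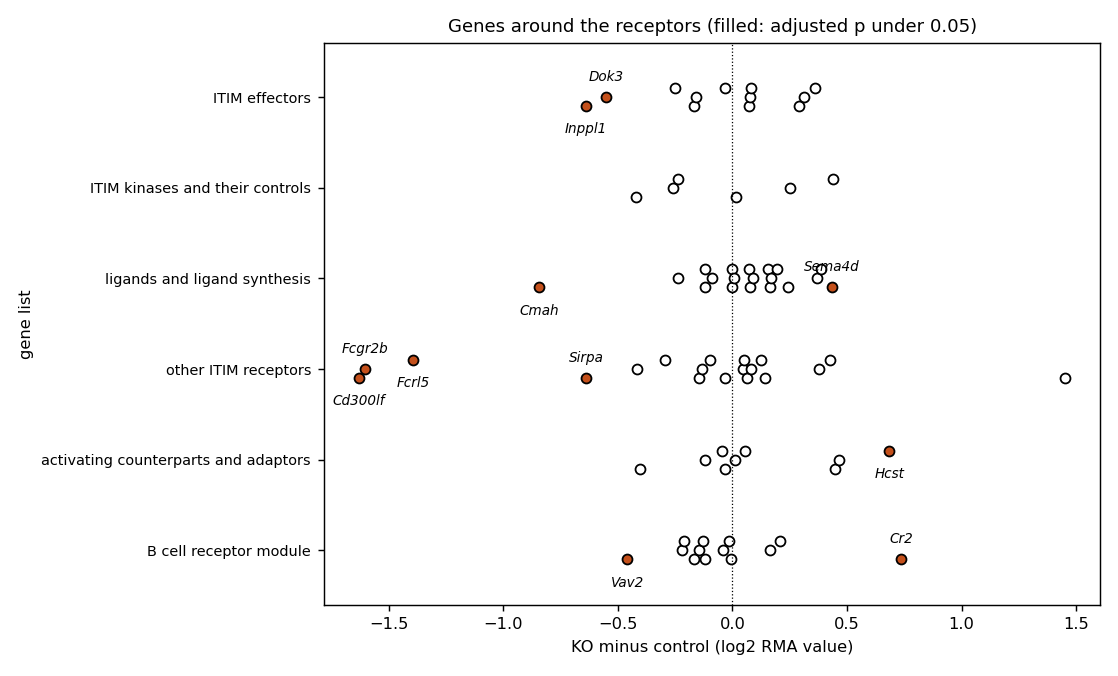
Each point is 1 gene of a list named on the vertical axis, placed by its difference KO minus control in log2 RMA value on the horizontal axis. Filled points, which are labelled, had adjusted p under 0.05. The falls of Cd300lf, Fcgr2b and Fcrl5 among other ITIM receptors are larger than any called difference in the other 5 lists, and the open point farthest to the right is Klrc1 (1.45, not called).

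Markers of other cells were set beside these results, because Pirb, Lilrb4a, Cd300lf and Sirpa are also made by myeloid cells. The mean of 14 macrophage markers lay between 4.59 and 4.88 in KO and between 4.45 and 5.29 in control. Of these 14, 1 fell (Cd68, -0.56) and 0 rose, 3 passed at an unadjusted p under 0.05, and Adgre1 (F4/80) differed by -0.76 without a call (limma, adjusted p = 0.122). The markers ranged widely in level. Lyz2 averaged 8.86 in KO and 8.96 in control (control pools 8.10 to 10.14), Cd68 7.63 and 8.19, and C1qb 5.69 and 5.78. Below the median of all gene means were 5 of the 14, Csf1r (3.58 and 3.53), Cd14 (3.49 and 3.43) and Fcgr1 (3.28 and 3.43) among them. With the macrophage marker mean as a covariate the differences were -2.00 for Lilrb4a, -0.80 for Pirb, -1.67 for Cd300lf and -0.67 for Sirpa, each called. That mean overlapped between the groups and holds 5 markers below the median, so the fit cannot settle the part of myeloid cells. That part was not tested. All 10 neutrophil markers averaged below the median of all gene means. The mean of 10 mast cell markers was 3.16 to 3.46 in KO and 2.98 to 3.86 in control, highest in control pool 1, and limma called 0 of them (0 at an unadjusted p under 0.05). The mean of 8 plasma cell markers was 6.03 to 6.17 in KO and 5.89 to 6.003 in control, without overlap. Of these 8, 1 rose, the immunoglobulin joining chain gene Jchain (1.49, adjusted p = 0.000197), and 0 fell. Differences were positive in 6 and negative in 2, Xbp1 (-0.35) and Irf4 (-0.34). For Xbp1 and Irf4 all KO pools lay below the control pools, without a call (limma, adjusted p = 0.0961 and 0.0881). Both were named after their values were seen. The part of plasma cells in the results on the receptors was not tested.

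T and NK cell markers were higher in KO and varied widely between pools. Positive differences were seen in 12 of 13 T cell markers and in all 11 NK markers, with medians of 1.01 and 0.41. Of the former limma called 0 (8 at an unadjusted p under 0.05) and of the latter 2 as higher. Adjusted for the T cell marker mean, the falls remained called for Lilrb4a (-1.89), Ceacam1 (-0.82), Pirb (-0.74) and Siglecg (-0.67), and with KO pools 1 and 2 left out at -1.96, -0.83, -0.76 and -0.75. Cd22 had the same difference of -0.59 after that adjustment and -0.58 without these pools, and was not called in either (adjusted p = 0.121 and 0.138). Cd300a differed by 0.48 and 0.52 and was not called (0.231 and 0.209). In pooled RNA, fewer cells of a type and less RNA per cell cannot be told apart.

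The mean of B cell transcripts was similar in both groups. The mean of 9 B cell markers, Ms4a1, Pax5 and Ebf1 among them, was 10.1 to 10.3 in KO and 10.2 to 10.3 in control, and limma called 0 of them (2 at an unadjusted p under 0.05). These 2, Blk (-0.24) and Pou2af1 (0.23), differed in opposite directions, each without overlap of the groups (adjusted p = 0.218 and 0.227). Of 10 B-1 cell markers 4 fell and 0 rose, with a median difference of -0.32. The falls were Itgam (-1.68), Fcrl5 (-1.39, also listed above as an ITIM receptor), Zbtb32 (-1.11) and Cd9 (-0.60). Differences were positive in 3 of the 10, Ctla4 (0.55), Bhlhe40 (0.19) and Ptpn22 (0.07), and none of them was called. For Ctla4 all KO pools lay above the control pools (limma, adjusted p = 0.108). The mean of the 10 was 7.09 to 7.20 in KO and 7.58 to 7.66 in control, without overlap. How far the falls of the receptors go with those of B-1 cell markers was not tested. The targeted gene Paxip1 checked the labels, with 3.58 to 4.79 in KO against 6.87 to 7.16 in control (adjusted p = 9.96e-05).

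**Figure D4:**
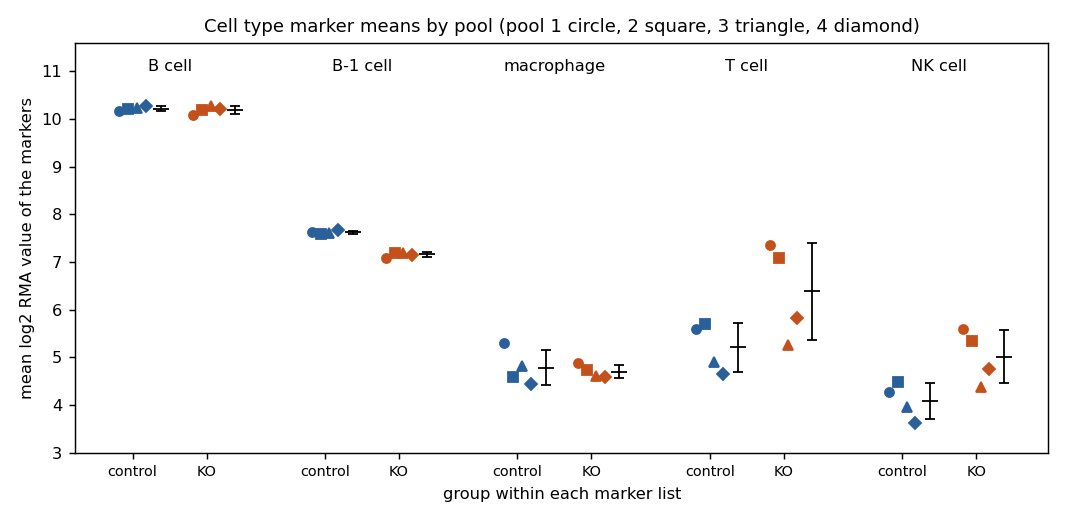
The vertical axis is the mean log2 RMA value of the measured markers of a cell type in each pool, and the horizontal axis gives the control and KO groups within each marker list. Black bars are the mean and SD of 4 pools. The B cell marker mean is level across the pools. The B-1 cell marker mean is lower in every KO pool than in any control pool. T and NK cell markers are highest in KO pools 1 and 2, and macrophage markers are highest in control pool 1 at 5.29.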

How the data were processed

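The authors deposited RMA values on the log2 scale for 41345 probe sets of 8 arrays, made with R 3.2.2 per the submitters' processing notes. RMA corrects background and gives all arrays 1 shared distribution. Array medians lay between 3.68 and 3.74. A difference is relative to the other genes of an array, and the number of arrays limits the precision.

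In the platform annotation 23521 probe sets listed 1 gene, 1814 listed several and stayed unnamed, and 16010 were not listed. The probe set with the highest mean was kept per gene, which left 22180 genes. limma 3.58.1 in R 4.3.3 (lmFit, eBayes, two-sided, Benjamini-Hochberg over all genes, adjusted p under 0.05) compared KO with control. The fit was tested on simulated data. The labels call the pools biological replicates but name no litters or days, so p-values measure the spread between pools. Alternatives changed probe set choice, genes tested, filter, scaling, variance prior, array weights, replicate block, marker covariates and the pools used.

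The rule for named genes took all measured members, the called genes of each list (up to 8 by p), Ptpn6, Ptpn11, Inpp5d, Paxip1 and the 3 protein-coding genes nearest in pattern to each called member. Members, lists and alternatives were chosen with earlier results of these data known. The motifs and the neighbouring genes were chosen after the values were seen. Some withheld items are not reported here. The search of member proteins for the ITIM consensus was not run. Sequences are from RefSeq, in which 7 of the 9 measured members had a promoter window (not Lilrb4a or Pecam1).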

Additional observations from a re-analysis of the deposited data

Results flagged for a closer look

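In 8 of 102 groups of 4 pools tested (the genes named here and the marker means), 1 pool stood far from the other 3 by Dixon's test, a rule that chance meets in about 1 of 20 groups. None of these 8 concerned a measured member. Sema4d was low in KO pool 4 (6.63, next 6.77), and Fcrl5 was low in control pool 3 (8.35, next 8.88). Cd274 and Ankrd16, the genes nearest in pattern to Siglecg along with Pik3c2b, were both high in KO pool 3, at 6.92 (next 6.44) and 6.40 (next 6.12). Siglecg was also highest in that KO pool, at 9.26. Both genes were chosen as near to Siglecg over all 8 arrays, this pool included, so the shared high pool adds nothing to that choice. Prdm9 was low in control pool 2 (6.47, next 6.68), Itgam was high in control pool 1 (7.70, next 7.18), Adam26b was high in control pool 2 (2.31, next 2.22) and Vps26b was low in control pool 4 (5.48, next 5.67).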

How the results depend on the processing

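Over 20 alternatives, Lilrb4a, Pirb, Siglecg and Ceacam1 were called lower in every one. Cd22 kept its sign and lost its call in 5, and Cd300a lost its call in 10 of 19. Of 178 values of the members under alternatives 156 kept direction and call. Cd5 changed sign in 4: adjusted for the T cell marker mean (-0.113), with KO pools 1 and 2 left out (-0.0868), and when KO pool 1 (-0.0372) or control pool 2 (-0.0161) was left out. The count of members called higher, 1, became 0 with genes above the median mean only (which leaves Cd300a untested), no moderation of the variance, the replicate block, the T cell marker mean and KO pools 1 and 2 left out, and ranged from 0 to 1 when 1 pool was left out; called lower ranged from 4 to 5 there. The count of called genes, 797, was 1017 with genes above the median mean only, 1006 with an intensity trend and robust prior, 303 without moderation, 317 with the T cell marker mean, 320 with KO pools 1 and 2 left out and 479 to 758 when 1 pool was left out (lowest without control pool 4). Of 240 counts for the other lists, 49 moved by over 1.5 times. Deviations of pools with the same number correlated at 0.04 to 0.11. Whether the numbers pair KO with control pools is not stated in the labels, and these values do not settle it. The replicate block gave 666 called genes and 5 called members. With it Cd300a, Vav2, Cr2, Sbno2, Tmem199 and Vps26b lost their calls (adjusted p = 0.0592 to 0.0843) among the genes chosen by the naming rule. KO pools 1 and 2 matched best with the control pool of their own number, and KO pools 3 and 4 did not. Cd300a and Lair1 had values below the median of all gene means, where detection was not tested.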
